A study of Rattus norvegicus albus with 6 samples.

Results

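The effects of FJ9 and ICG-001 on primary rat (Rattus norvegicus albus) hepatic stellate cells were set against each other, gene by gene. Hepatic stellate cells store retinoids in the healthy liver and become contractile, matrix-producing myofibroblasts when activated. The contrast uses 4 of the 6 arrays of the series, chosen by their titles: ICG-001, the vehicle for ICG-001, FJ9 and the vehicle for FJ9. Primary cells had been activated by 7 days of growth on plastic with 10% serum. They were then kept for 24 h without serum in 10 µM ICG-001, in 200 µM FJ9, or in the control given to each. What the vehicle was is not stated, and each compound has a control array of its own. The doses differ by design, so compound and dose cannot be told apart. Each array held RNA pooled from 3 to 4 rats, so every group is 1 array. There is no replicate, no residual degree of freedom and no test for any difference below. The other 2 arrays of the series, from cells infected with adenovirus (Ad.DKK-1 and Ad.GFP), entered only the mean level that decides which genes are kept.

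The readout is a log2 expression value per probe set. For a gene, the effect of a compound is its treated array minus its own vehicle array. The difference of effects is the FJ9 effect minus the ICG-001 effect, so a positive value means that the gene stood higher with FJ9 than with ICG-001, relative to the vehicles. Of 14322 genes with a probe set that names them alone, 10025 lay above the lowest 30% in mean level over the 6 arrays. The limit fell at a mean of 6.39. Jag2 (6.3863) and Pde1b (6.3870) lay just inside it, with differences of effects of 0.46 and −0.22, and Msi1 (6.3852) just outside, with 0.60.

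Canonical Wnt signalling starts when a Wnt ligand engages a Frizzled receptor and its LRP co-receptor at the membrane. Frizzled then recruits Dishevelled, β-catenin escapes degradation, enters the nucleus and activates genes with TCF/LEF factors and coactivators such as CBP and p300. FJ9 is described as a blocker of the contact between Frizzled and the PDZ domain of Dishevelled, near the start of this chain. ICG-001 binds CBP and keeps it from β-catenin at the end of the chain, while p300 is left free. In stellate cells the pathway has been tied to the switch between the fat-storing and the activated state.

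The arrays carried the markers of stellate cells: 14 of 14 measured markers lay above the level filter, among them Col1a1, Pdgfrb, Des, Lrat and Reln. Lrat belongs also to the list of the quiescent state used below. Acta2, which encodes smooth muscle actin, has no probe set that names it alone and was not analysed. Above the same filter lay 1 of 9 hepatocyte markers (Hnf4a), 3 of 10 macrophage markers (Cd68, Csf1r and Lyz2), 2 of 4 endothelial markers (Tek and Tie1), 3 of 6 lymphocyte markers, 2 of 3 cholangiocyte markers and 5 of 6 markers of portal fibroblasts and mesothelium. The defining macrophage genes Clec4f, Adgre1 and Marco and the hepatocyte gene Alb lay under it. Summed over the 14 stellate markers, the log2 level was 163 with ICG-001, 167 on its vehicle, 156 with FJ9 and 165 on its vehicle, and Des (−1.21) and Lrat (−1.92) were at least 2-fold lower in the difference of effects. Summed over all 10 macrophage markers it was 57.4, 64.1, 61.8 and 65.7 in the same order, and Cd163 (1.12) and Tyrobp (1.06), both under the filter, were at least 2-fold higher. So were Nkg7 (1.87) and Cd3d (1.33) of the lymphocyte list and Fgb (1.53) of the hepatocyte list, while Tek (−1.06) of the endothelial list was lower. The part of such cells in the differences below was not tested. In pooled cultures, fewer cells of a kind and less RNA per cell cannot be told apart. Array medians over all 26988 probe sets were 7.11 for ICG-001, 7.28 for its vehicle, 7.15 for FJ9 and 7.15 for its vehicle.

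The compounds moved many genes the same way and some in opposite directions. The FJ9 and ICG-001 effects correlated over the 10025 genes with a Pearson r of 0.45 and a Spearman rho of 0.42, a description across genes, which are not independent and share the arrays' scaling. Of 1000 genes at least 1.5-fold from the vehicle with both compounds, 431 were higher with both, 454 were lower with both and 115 (11.5% of them, and 1.15% of all genes) went opposite ways. In the opposite set, 81 genes were lower with FJ9 and higher with ICG-001, 0.808% of all genes, against 34 in the other sense, 0.339%. Without the level filter the counts were nearly equal, with 92 genes lower and 94 higher with FJ9. When both compounds were held to 2-fold, 12 genes remained, and all 12 were lower with FJ9 and higher with ICG-001.

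In the difference of effects, 947 genes (9.45%) reached 2-fold, 358 of them on the higher side (3.57%) and 589 on the lower (5.88%). On the lower side most genes were past 1.5-fold with FJ9: of the 589 genes, 309 were past 1.5-fold with FJ9 alone, 128 with ICG-001 alone, 81 with both in opposite directions, 56 with both in the same direction and 15 with neither. On the higher side ICG-001 took the larger share. Of its 358 genes, 189 were past 1.5-fold with ICG-001 alone, 104 with FJ9 alone, 34 in opposite directions, 21 in the same direction and 10 with neither. Centring each array on its median turned the split of 358 higher and 589 lower to 205 and 886, and moved the median difference of effects over all genes from −0.01 to −0.19. Without the level filter the split was 821 higher and 693 lower, so which side is larger depends on the weakly expressed genes.

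**Figure D1:**
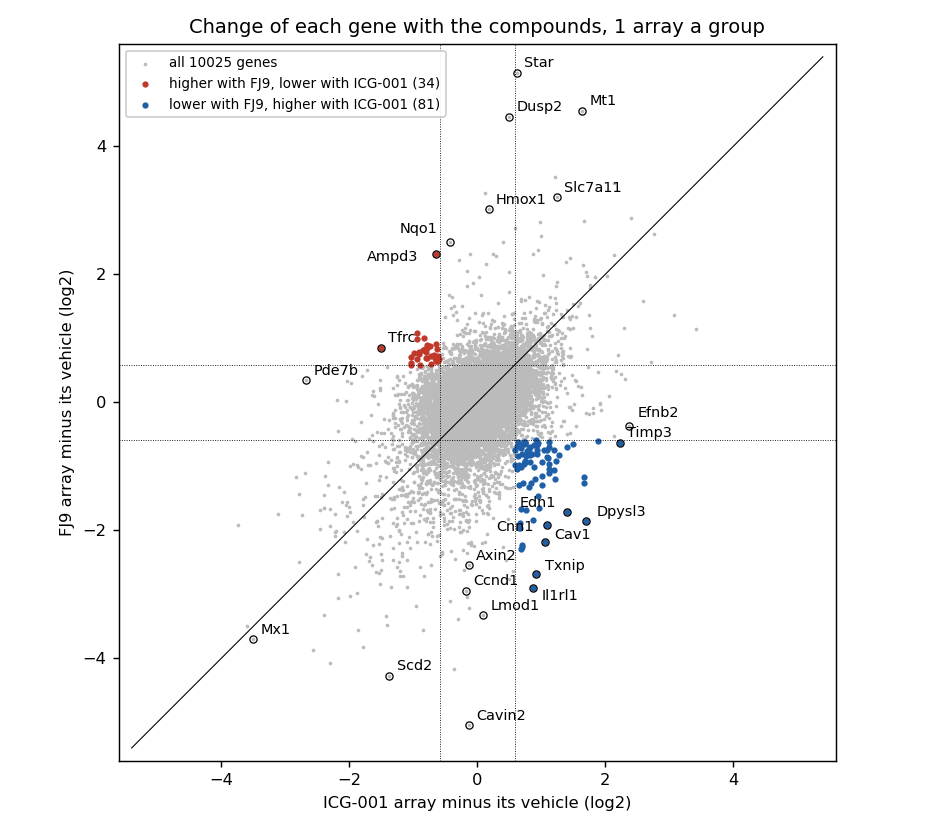
Effect of FJ9 (treated minus vehicle, log2, vertical axis) against the effect of ICG-001 (horizontal axis) for 10025 genes, 1 point a gene and 1 array a group; dotted lines mark 1.5-fold and the diagonal marks equal effects. The 81 genes lower with FJ9 and higher with ICG-001 (blue) fill the lower right and the 34 in the other sense (red) the upper left, and Cavin2 (−4.91) and Star (4.53) lie furthest from the diagonal.

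Because each compound has its own vehicle, the difference of effects equals the FJ9 array minus the ICG-001 array, less the difference between the vehicle arrays. The vehicle arrays were at least 2-fold apart for 114 genes (1.14%) and at least 1.5-fold apart for 766 (7.64%). Of the 947 genes past 2-fold in the difference of effects, 761 had vehicles within 1.5-fold of each other and 186 did not. On the lower side, 422 of 589 genes were also at least 2-fold lower on the FJ9 array than on the ICG-001 array itself (5.28% of all genes were), and 29 were within 1.5-fold there. On the higher side 150 of 358 genes were 2-fold higher between the treated arrays (2.56% of all genes were), and 103 were within 1.5-fold. Genes on the lower side thus rested on the treated arrays more often than genes on the higher side, in counts that were not tested. Below, the vehicle difference (the FJ9 vehicle minus the ICG-001 vehicle) is given, or stands in the vehicle levels printed, for the genes named where it reached 2-fold.

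**Figure D2:**
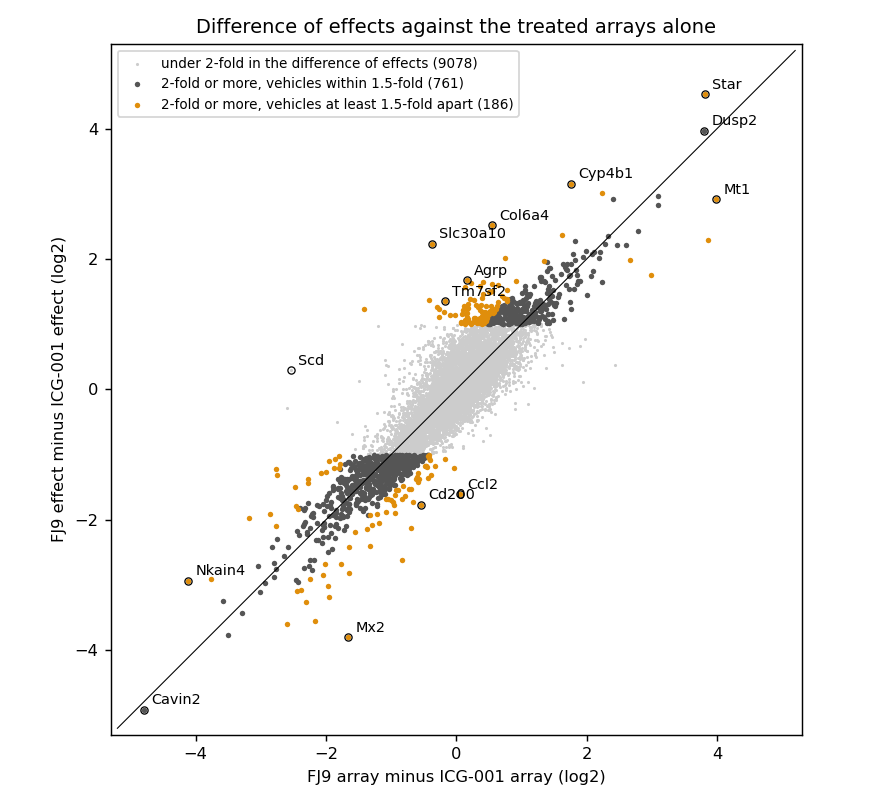
Difference of effects (log2, vertical axis) against the FJ9 array minus the ICG-001 array (log2, horizontal axis) for 10025 genes; on the diagonal the vehicles are equal. Of the genes past 2-fold, 761 (dark) have vehicles within 1.5-fold and 186 (orange) do not; Slc30a10, Col6a4 and Ccl2 lie far off the diagonal, and Cavin2 and Dusp2 lie close to it.

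Genes of caveolae, the flask-shaped pits of the plasma membrane built from caveolins and coated by cavins, had the median furthest from 0 of the 31 gene lists examined, although canonical Wnt targets passed them (−1.24 against −1.21) when the lowest 50% of genes were left out. Cavin2 (probe set 10927900), a coat protein that helps to bend the membrane, read 10.01 on the vehicle for ICG-001, 9.88 with ICG-001, 10.14 on the vehicle for FJ9 and 5.10 with FJ9. The FJ9 array alone stood low, and the difference of effects of −4.91, or 30.2-fold, was the most negative of all 10025 genes. Cav1, the main scaffold of caveolae, read 10.16 and 11.22 without and with ICG-001, against 9.83 and 7.64 without and with FJ9. It was higher with one compound and lower with the other, with effects of 1.07 and −2.19. Cav2, the partner of Cav1, had the same pattern, at 7.14 and 8.09 against 6.73 and 5.27, and both of its probe sets gave a difference of effects of −2.42. Cavin1, which is needed for caveolae to form, read 9.36 and 9.30 against 9.26 and 7.02, so only the FJ9 array was low. Cavin3 (−1.21) and the caveolar neck ATPase Ehd2 (−1.18) differed in the same sense. Of 8 members above the filter, 6 were at least 2-fold lower in the difference of effects and none was higher. The shares of all genes were 5.88% and 3.57%. The list median was −1.70 beside −0.01 over all genes. The remaining members, Pacsin2 (−0.18) and Pacsin3 (0.06), differed little. The vehicle difference furthest from 0 in this list was −0.58, that of Pacsin3. Cav3 (1.07) and Cavin4 (−0.34), of muscle caveolae, lay under the level filter, and with them the median was −1.20.

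Contractile genes, which give myofibroblasts their pull, were lower with FJ9 and near their vehicle with ICG-001. Of 29 members, 21 were at least 1.5-fold lower with FJ9 and 2 with ICG-001, beside 14.8% and 13.1% of all genes. The median effect was −0.88 with FJ9 and 0.01 with ICG-001. In the difference of effects 10 of 29 reached 2-fold lower and none higher, beside 5.88% and 3.57% of all genes. The median was −0.85, and 28 of 29 were below 0. Lmod1, which nucleates actin filaments in smooth muscle, read 8.69 and 8.79 without and with ICG-001, and 8.83 and 5.50 without and with FJ9. The other 3 arrays lay close together and the FJ9 array stood low, a difference of effects of −3.43. Cnn1, the smooth muscle calponin, read 8.08 and 9.17 against 9.13 and 7.21. Here the compounds went opposite ways (1.09 and −1.92), although the vehicles themselves differed by 1.05, so that the ICG-001 array stood at the level of the vehicle for FJ9. The regulatory light chain gene Myl9 (−1.82), the tropomyosin gene Tpm1 (−1.38) and the enteric actin gene Actg2 (−1.38) differed mainly through FJ9. Actg2 resembles other actin genes in sequence, and probe sets of actins may share signal. Mylk, the kinase of the myosin light chain, was lower with both compounds, by −1.04 with ICG-001 and −2.27 with FJ9. Srf, the transcription factor that drives many of these genes, had effects of −0.30 and −1.07.

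Targets of YAP and TEAD, transcription factors that respond to cell tension, were split by the compounds: of 15 members above the filter, ICG-001 put 5 past 1.5-fold on the higher side (12.6% of all genes) and 2 on the lower (13.1%). FJ9 put 6 on the lower side (14.8%) and 0 on the higher (11.6%). The median effect of 15 members was 0.48 with ICG-001 and −0.55 with FJ9. Of these members, 7 were at least 2-fold lower in the difference of effects, beside 5.88% of all genes, and none was higher, with a median of −0.75. Edn1, the gene of the vasoconstrictor endothelin-1, read 10.22 and 11.61 without and with ICG-001, and 10.32 and 8.60 without and with FJ9. The vehicles lay close together and the treated arrays on either side of them, 8.67-fold apart in the difference of effects. Fjx1 (0.81 with ICG-001 and −1.32 with FJ9) followed the same pattern. Nuak2, a kinase of the AMPK family, had effects of 0.50 and −1.61, and the angiomotin relative Amotl2 had 0.58 and −0.98. Ankrd1 (0.98 and −0.48), an ankyrin repeat protein of strained muscle, and Ccn1 (0.48 and −0.58), a matricellular protein, differed in the same sense. Nt5e, a surface enzyme that makes adenosine, and the clotting initiator gene F3 had positive values (0.72 and 0.17), and both were lower with both compounds.

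**Figure D3:**
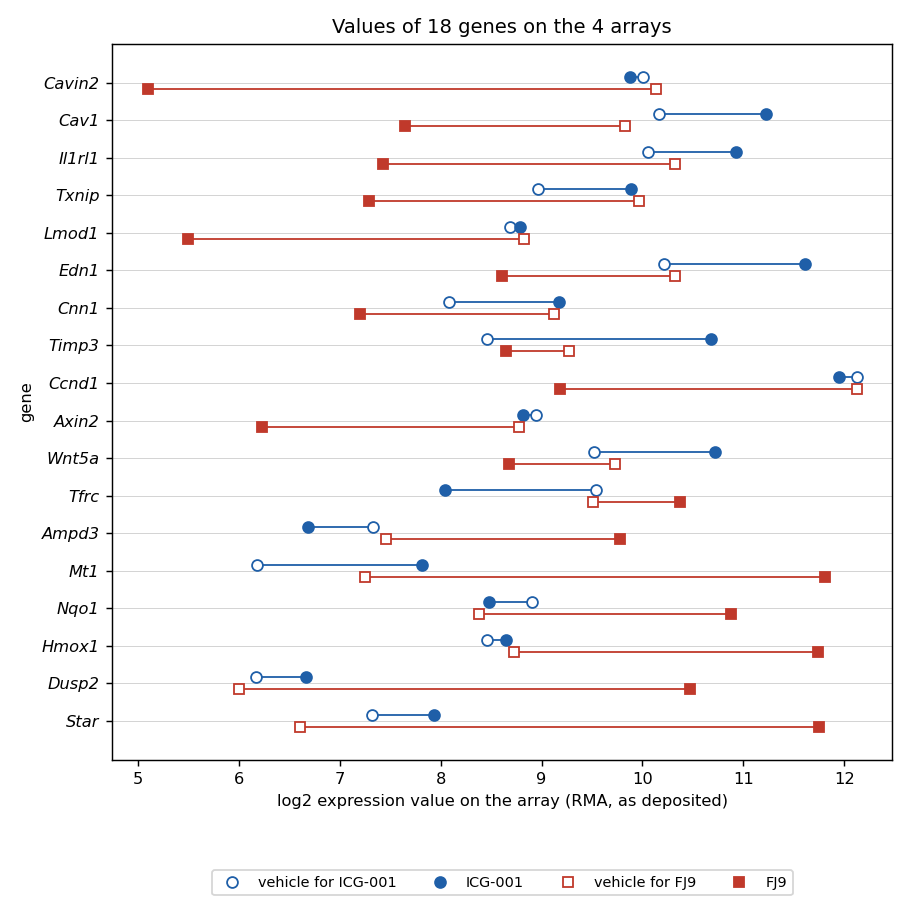
Log2 expression values of 18 genes on the 4 arrays of the contrast; open symbols are vehicles, filled symbols treated arrays, and a line joins each compound to its own vehicle. Cavin2, Lmod1, Ccnd1 and Axin2 move with FJ9 alone, and Cav1, Edn1 and Wnt5a go opposite ways from nearly equal vehicles. Dusp2 and Hmox1 stand high on the FJ9 array alone. Star stands highest there and is past 1.5-fold higher with ICG-001 as well.

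Immediate early genes, which cells switch on within minutes of a stimulus, were split. Over 24 members the median effect was 0.49 with ICG-001 and −0.18 with FJ9. In the difference of effects 7 were at least 2-fold lower and 2 higher, beside 5.88% and 3.57% of all genes. Of the Krüppel-like factors, Klf2 read 8.79 and 9.81 without and with ICG-001, and 8.55 and 7.61 without and with FJ9. The 2 treated arrays thus lay on opposite sides of both vehicles. Klf6 (0.72 and −0.65) went opposite ways too, and Klf10, a gene induced by TGF-β, was lower with FJ9 (−1.34) and within 1.5-fold with ICG-001 (0.46). Klf4 did not share this split and was past 1.5-fold higher with both compounds (1.33 and 0.60). Jun, a subunit of the AP-1 factor, was higher with ICG-001 (0.99) and near its vehicle with FJ9 (−0.27). The members at least 2-fold higher in the difference of effects were Ier3 (1.08) and Egr3 (1.05), and the FJ9 effect of Egr3 itself was −0.08. The nuclear receptor genes Nr4a3 (0.93) and Nr4a2 (0.83) came next of the 8 members with a positive value. Myc and Fosl1 had nearly equal effects: the difference of effects was 0.06 for Myc (0.75 with ICG-001 and 0.81 with FJ9) and −0.0042 for Fosl1 (1.02 and 1.01).

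Phosphatases and other brakes on MAP kinase and G protein signalling differed in both directions. In the difference of effects 4 of 20 were at least 2-fold higher and 6 lower, beside 3.57% and 5.88% of all genes. Dusp2, a nuclear phosphatase of MAP kinases, read 6.17 and 6.66 without and with ICG-001, and 6.00 and 10.47 without and with FJ9. Only the FJ9 array was high, a difference of effects of 3.97 or 15.7-fold. Dusp5, which acts on ERK in the nucleus, was lower with ICG-001 (−0.84) and higher with FJ9 (1.00). Dusp6, the cytoplasmic counterpart, had the opposite pattern (0.75 and −0.92), with a vehicle difference of 0.59. Dusp14 was lower with FJ9 alone, at −2.18 against −0.10. Dusp1 and Spry2 stood higher with ICG-001 (1.51 and 1.05) and near the vehicle with FJ9 (−0.02 and −0.35). Rgs5, a pericyte regulator of G protein signalling, was lower with both, more so with ICG-001 (−2.83) than with FJ9 (−1.17).

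Canonical Wnt targets differed in more than one way. Axin2, which marks active canonical signalling and helps to degrade β-catenin, read 8.94 and 8.82 without and with ICG-001, and 8.77 and 6.23 without and with FJ9. Ccnd1, the gene of cyclin D1, read 12.12 and 11.94 against 12.13 and 9.18. For both genes 3 arrays lay close together and the FJ9 array stood low, with differences of effects of −2.41 and −2.76. Nkd1, an inhibitor of Dishevelled, read 9.41 and 8.41 without and with ICG-001, and 9.09 and 8.93 without and with FJ9. It had the reverse pattern, with the ICG-001 array low and the FJ9 array near its vehicle (a difference of effects of 0.85). Its relative Nkd2 was higher with ICG-001 (0.59) and lower with FJ9 (−0.74). The hyaluronan receptor gene Cd44 differed by −1.33 through ICG-001, where it was higher (1.58 against 0.25). Over 15 members the median difference of effects was −0.30. At least 2-fold lower were 7 members and none was higher, beside 5.88% and 3.57% of all genes. The median is not stable: it was −0.04 with a common control for both compounds, 0.06 without the level filter and −1.24 with the lowest 50% of genes left out. The 4 targets under the level filter include Lef1 (−1.02 with ICG-001 and −0.57 with FJ9).

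Of the ligands and receptors, Wnt5a, a mostly non-canonical ligand, read 9.52 and 10.72 without and with ICG-001, and 9.73 and 8.68 without and with FJ9. The compounds thus moved it by similar amounts in opposite directions (1.21 and −1.05). Ror1, a receptor for Wnt5a, was lower with FJ9 (−1.33) and within 1.5-fold with ICG-001 (0.29). Fzd4 read 10.55 and 11.02 against 10.10 and 8.28, and Fzd2 read 10.32 and 10.35 against 10.32 and 8.86, so that both Frizzled receptors were low on the FJ9 array alone. Wif1, a secreted inhibitor that binds Wnt ligands, was the 1 component of 47 that reached 2-fold higher (1.24), and 5 reached 2-fold lower. The shares of all genes were 3.57% and 5.88%. With the vehicles exchanged, the value of Wif1 was −0.0036.

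The genes of the compounds' reported targets differed less. Crebbp, which encodes CBP, had effects of 0.31 with ICG-001 and 0.49 with FJ9. Ep300, the gene of p300, had 0.40 and −0.05. Dvl1 (0.06 and −0.63) and Dvl3 (−0.23 and −0.61) were lower with FJ9, and Dvl2 has no probe set that names it alone. Ctnnb1, the gene of β-catenin, read 10.92 and 11.11 without and with ICG-001, and 10.91 and 10.40 without and with FJ9, a difference of effects of −0.70.

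D cyclins, their kinases and their inhibitors were lower with FJ9 in 4 of 10 cases past 1.5-fold, and in none with ICG-001. The shares of all genes were 14.8% with FJ9 and 13.1% with ICG-001. After Ccnd1, the kinase gene Cdk6 was lower with FJ9 (−1.17 against 0.32 with ICG-001). The inhibitors Cdkn2a (−1.65 against −0.43) and Cdkn2b (−0.98 against 0.13) were lower as well. Cdk4, the other partner of cyclin D1, differed by 0.49.

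Genes of DNA replication and mitosis pointed the other way. Of 23 members above the filter, 20 had a positive difference of effects, with a median of 0.57. At least 2-fold higher were 6 members and none was lower, beside 3.57% and 5.88% of all genes. The gap came in part from lower values with ICG-001: cyclin E1 (Ccne1) read 7.15 and 5.90 without and with ICG-001, and 7.37 and 7.79 without and with FJ9. E2f8, a repressor of the cycle, was lower with both, by −3.11 with ICG-001 and −1.74 with FJ9. For Stmn1 and Hmmr, which act on microtubules, the gap came from FJ9, where Stmn1 read 9.26 against 6.54 on its vehicle and Hmmr 8.60 against 6.64. The level filter removed 18 further members, of which 6 were at least 2-fold higher in the difference of effects and none lower. Without the filter the median was 0.72. It was smaller in other settings, at 0.37 with a common control, 0.25 with the vehicles exchanged and 0.40 with arrays centred on their medians.

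The TGF-β family differed on the side of lower values with FJ9, with a median difference of effects of −0.67. Of 20 members, 7 were at least 2-fold lower and none higher, beside 5.88% and 3.57% of all genes. Inhba, the activin A subunit, read 8.64 and 9.92 without and with ICG-001, and 9.04 and 8.22 without and with FJ9. Tgfb3 had effects of 0.68 and −1.02, so that both ligand genes were past 1.5-fold in opposite directions. Tgfb2 was higher with ICG-001 (0.94) and within 1.5-fold with FJ9 (−0.37). Fst, the activin-binding follistatin, was lower with FJ9 alone (−1.95 against −0.12), as was the ligand gene Bmp6 (−1.16 against 0.47).

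**Figure D4:**
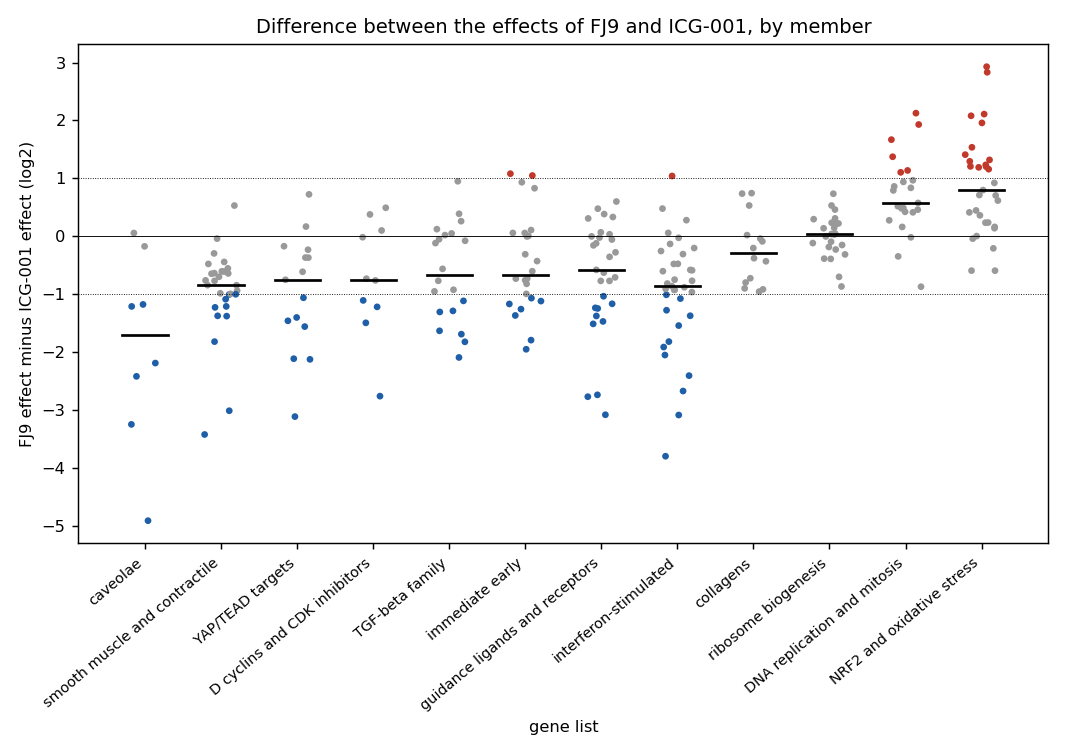
Difference of effects (FJ9 effect minus ICG-001 effect, log2) of each member above the level filter in 12 gene lists; black bars are medians, dotted lines mark 2-fold, and points are coloured red or blue past it. The medians run from −1.70 for caveolae to 0.80 for NRF2 and oxidative stress genes, and no collagen or ribosome biogenesis gene passes 2-fold.

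In the difference of effects 0 of 14 collagen genes reached 2-fold, beside 9.45% of all genes. Between the treated arrays 4 of 14 were at least 2-fold lower with FJ9, beside 5.28%: Col11a1 (−1.43), Col14a1 (−1.14), Col5a1 (−1.04) and Col16a1. The median difference of effects was −0.29, and −0.66 with the vehicles exchanged. Col1a1, the main fibrillar collagen of scars, read 12.96 and 12.77 without and with ICG-001, and 12.80 and 12.57 without and with FJ9. Its partner Col1a2 read 12.50 and 12.24 against 12.42 and 12.17. All 4 arrays lay close together for both genes, with differences of effects of −0.04 and 0.02. The widest collagen gaps were those of Col12a1 (−0.96), a fibril-associated collagen, and Col5a1 (−0.92).

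Other matrix genes differed more. Of 27 members, 17 were at least 1.5-fold lower with FJ9 and 8 with ICG-001, beside 14.8% and 13.1% of all genes. In the difference of effects 7 reached 2-fold lower against 1 higher, beside 5.88% and 3.57%. The crosslinking transglutaminase gene Tgm2 was lower with both compounds, at 10.62 and 8.83 without and with ICG-001 and 10.34 and 6.51 without and with FJ9. The lysyl oxidase relative Loxl1 was lower with FJ9 alone (−1.52 against 0.04), and so was the proteoglycan gene Prelp (−1.98 against −0.48). Vcan, the large proteoglycan of provisional matrix, went opposite ways (0.93 and −0.75), with a vehicle difference of 0.63. Has2, which makes hyaluronan, was higher with ICG-001 (0.98) and within 1.5-fold with FJ9 (−0.52). The elastin gene Eln was the member on the higher side (1.23), since it was lower with ICG-001 (−2.38) than with FJ9 (−1.15).

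Among matrix proteases and their inhibitors, Timp3, a matrix-bound inhibitor of metalloproteinases, read 8.46 and 10.68 without and with ICG-001, and 9.28 and 8.64 without and with FJ9. It stood high on the ICG-001 array alone, and the difference of effects of −2.86 includes a vehicle difference of 0.81. The protease gene Adamts1 was likewise high with ICG-001 (1.92) and at its vehicle with FJ9 (−0.02). Reck, a membrane inhibitor of metalloproteinases, was lower with both (−0.59 and −1.76), and the urokinase gene Plau was lower with FJ9 (−1.33 against −0.21). Mmp3, stromelysin 1, was the 1 member of 22 at least 2-fold higher (0.91 with FJ9 and −0.31 with ICG-001). At least 2-fold lower were 5 of the 22. The shares of all genes were 3.57% higher and 5.88% lower.

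Guidance molecules, better known from axon growth, held 10 of 29 members at least 2-fold lower in the difference of effects and none higher. The shares of all genes were 5.88% and 3.57%. For Efnb2, a ligand of Eph receptors, and Flrt3, a ligand of Unc5 receptors, the gap came from ICG-001. Efnb2 read 7.19 and 9.55 without and with ICG-001, and 7.59 and 7.22 without and with FJ9. Flrt3 read 5.67 and 8.32 against 6.24 and 6.11. For the semaphorin gene Sema7a it came from FJ9, at 9.87 and 6.49 without and with the compound, against 9.16 and 8.86 for ICG-001. Nrp1, a co-receptor of semaphorins and VEGF, was lower with FJ9 (−1.11 against 0.36).

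Genes of the antioxidant programme, which the factor NRF2 controls, stood higher with FJ9. Of 31 members, 16 were at least 1.5-fold higher with FJ9 and 3 with ICG-001, beside 11.6% and 12.6% of all genes. In the difference of effects 14 were at least 2-fold higher and none lower, beside 3.57% and 5.88% of all genes. The median was 0.80, and 0.62 when arrays were centred on their medians. Hmox1, which breaks down heme, read 8.46 and 8.64 without and with ICG-001, and 8.73 and 11.74 without and with FJ9. Nqo1, a quinone reductase, read 8.90 and 8.48 against 8.38 and 10.88. For both genes the FJ9 array was high and the other 3 lay together, 7.12-fold and 7.61-fold apart in the difference of effects. Osgin1 (2.11) and the sulfiredoxin gene Srxn1 (2.08) differed in the same way. Slc7a11, which imports cystine for glutathione, was higher with both compounds, by 1.25 with ICG-001 and 3.20 with FJ9. Gclc, which starts glutathione synthesis, had effects of 0.32 and 1.55, and the export pump gene Abcc4 had 0.50 and 2.04. The list also holds Gsta4, a glutathione transferase, whose positive value of 1.32 came from a lower reading with ICG-001 (−1.91) than with FJ9 (−0.60).

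The metallothioneins, small proteins that bind zinc and copper, were higher with both compounds and more so with FJ9. Mt1 read 6.18 and 7.82 without and with ICG-001, and 7.25 and 11.81 without and with FJ9. Mt2A read 6.42 and 7.64 against 7.98 and 11.50. The vehicle for FJ9 was itself the higher vehicle, by 1.08 and 1.56, so the treated arrays differed by more (3.99 and 3.86) than the effects did (2.91 and 2.30). Both genes have 2 probe sets: those of Mt1 agreed (2.91 and 2.95), while the second of Mt2A gave 3.92, with an ICG-001 effect of 0.07 in place of 1.22. Their sequences are close, and the probe sets may share signal. Of the 12 metallothionein and metal transport genes above the filter, 4 were at least 2-fold higher in the difference of effects and none lower. The shares of all genes were 3.57% and 5.88%. The 4 include Slc30a10 (2.24), which rested on a vehicle difference of −2.61 and differed by −0.37 between the treated arrays. The list median was 0.16 (−0.02 with arrays centred on their medians and −0.04 with a common control). Slc39a8, an importer of zinc and manganese, was higher with FJ9 (1.06) and not with ICG-001 (−0.26).

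The opposite set held a pair of genes that act on iron, picked after their values were seen. Tfrc, the transferrin receptor that takes up iron, read 9.54 and 8.04 without and with ICG-001, and 9.51 and 10.37 without and with FJ9. Slc40a1, the iron exporter ferroportin, read 10.95 and 10.11 against 10.63 and 11.45. Both were past 1.5-fold lower with ICG-001 and higher with FJ9, from vehicles within 0.32 of each other. The ferritin genes, which store iron and belong to the NRF2 list, were not in the opposite set: Fth1 had effects of −0.09 with ICG-001 and 0.83 with FJ9, and Ftl1 had 0.33 and 0.74.

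Genes of the integrated stress and amino acid response were mostly higher with both compounds. Of 32 members, 19 were at least 1.5-fold higher with ICG-001 and 24 with FJ9, beside 12.6% and 11.6% of all genes. In the difference of effects 3 reached 2-fold higher and none lower, beside 3.57% and 5.88% of all genes. The median was 0.23, and 26 of 32 were above 0. The stress cytokine gene Gdf15 was higher with both, by 0.98 with ICG-001 and 2.82 with FJ9. The pseudokinase gene Trib3 had effects of 1.66 and 2.84, and −0.04 as its difference of effects with the vehicles exchanged. Cbs, which makes cystathionine, was the third, and it was lower with ICG-001 (−1.63) and near its vehicle with FJ9 (0.18). Psat1 of serine synthesis was higher with ICG-001 (1.47) than with FJ9 (0.73). Lists of endoplasmic reticulum folding (23 members), heat shock (15), ribosome biogenesis (24) and proteasome genes (30) had 0 members past 2-fold in the difference of effects. Ribosome biogenesis genes were among the most alike, with median effects of 0.73 with ICG-001 and 0.75 with FJ9.

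**Figure D5:**
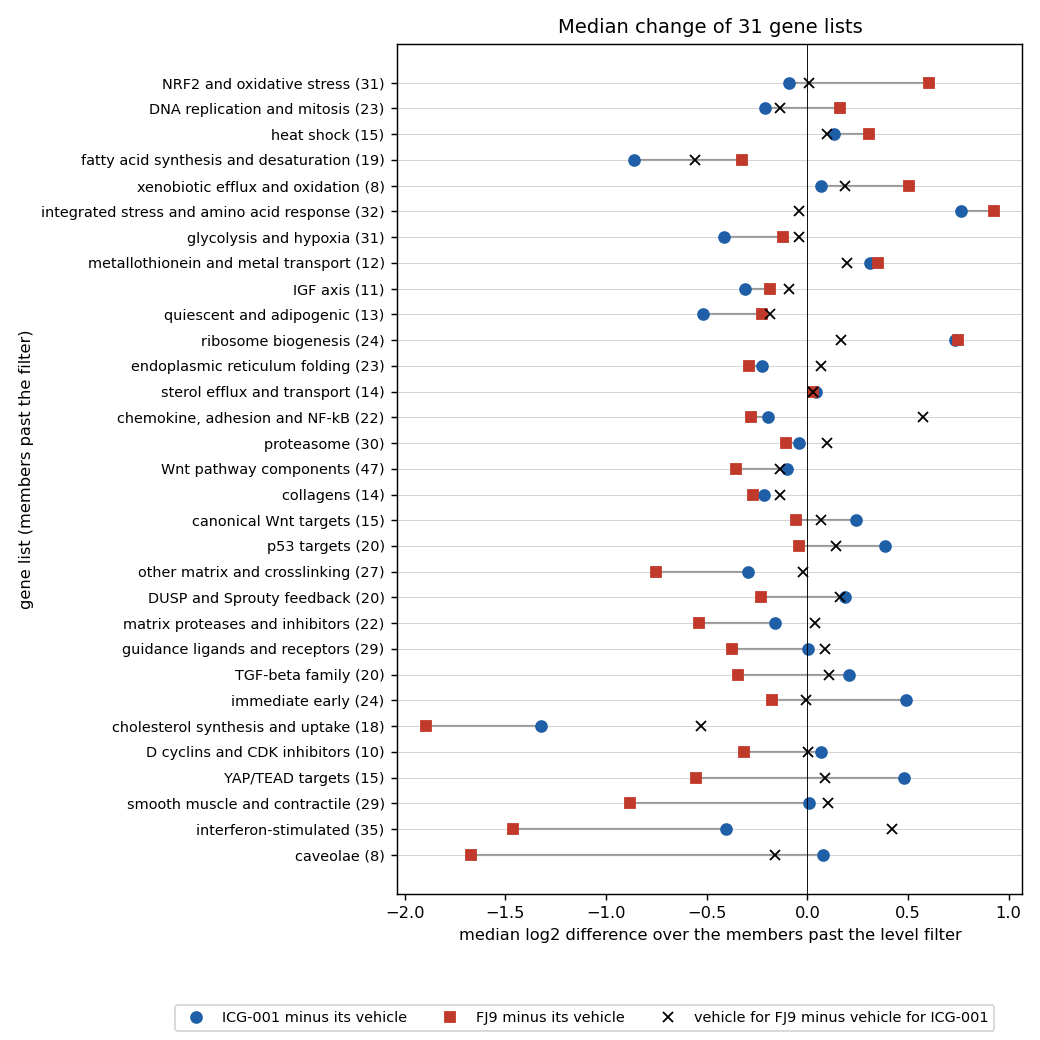
Median effect of ICG-001 (circles), median effect of FJ9 (squares) and median vehicle difference (crosses) for 31 gene lists, in log2, ordered by the median difference of effects; the number of members above the level filter stands in brackets. The effect medians of caveolae, interferon-stimulated and YAP/TEAD genes lie furthest apart, those of ribosome biogenesis genes coincide, and the crosses of the interferon, chemokine and lipid lists lie away from 0.

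Cholesterol synthesis genes were lower with both compounds, and further below with FJ9. Of 18 members, 15 were at least 1.5-fold lower with ICG-001 and 17 with FJ9, beside 13.1% and 14.8% of all genes. In the difference of effects 5 reached 2-fold lower against 1 higher, beside 5.88% and 3.57%. Idi1, which isomerises the isoprenoid unit, read 11.87 and 10.01 without and with ICG-001, and 11.57 and 8.02 without and with FJ9. Fdft1, the squalene synthase gene, read 11.00 and 10.40 against 10.59 and 8.51. Both treated arrays were low, the FJ9 array lowest. The median difference of effects was −0.68, and −1.13 against a common control, because the vehicle for FJ9 lay below the other with a median of −0.53 over this list. Of the 5 members with a positive value, Tm7sf2, a sterol reductase, was the 1 past 2-fold (1.35), and its treated arrays were nearly equal, at 8.43 and 8.25, so that its value came from a vehicle difference of −1.53.

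In fatty acid synthesis, the median difference of effects was 0.29 and turned to −0.61 with a common control, as the vehicles differed by a median of −0.56. Scd2, a stearoyl-CoA desaturase, read 12.57 and 11.20 without and with ICG-001, and 11.71 and 7.44 without and with FJ9, a difference of effects of −2.90. Its relative Scd read 11.09 and 8.31 against 8.26 and 5.77. With Scd the effects were alike (−2.78 and −2.49) and the levels were not, since the vehicle for FJ9 stood as low as the ICG-001 array. These genes resemble each other in sequence and may share signal. The desaturase gene Fads2 was lower with both (−2.56 and −3.87), with a vehicle difference of −1.44. Mid1ip1, which promotes the activity of acetyl-CoA carboxylase, was lower with FJ9 (−0.80) and not with ICG-001 (0.39).

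Star, which moves cholesterol into mitochondria for steroid synthesis, had the most positive difference of effects of all 10025 genes. It read 7.32 and 7.94 without and with ICG-001, and 6.60 and 11.75 without and with FJ9. The FJ9 array stood highest, with a difference of effects of 4.53 or 23.1-fold, and 3.82 between the treated arrays. Star was past 1.5-fold higher with ICG-001 as well (0.62), and its vehicle difference was −0.71. In the same list of sterol efflux and transport, Abca1, the exporter that loads cholesterol onto apolipoproteins, was higher with ICG-001 (1.73) than with FJ9 (0.55). Abcg1, a second exporter, was lower with FJ9 (−1.14 against −0.28). The median of the list was −0.05.

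Interferon-stimulated genes were lower with FJ9 in 28 of 35 cases past 1.5-fold and with ICG-001 in 14, beside 14.8% and 13.1% of all genes. In the difference of effects 12 reached 2-fold lower and 1 higher, beside 5.88% and 3.57%, with a median of −0.86. Samd9l, an antiviral factor, read 10.05 and 9.92 without and with ICG-001, and 10.69 and 7.47 without and with FJ9. Isg15, a ubiquitin-like protein, read 8.73 and 8.30 against 9.63 and 6.52. The FJ9 array was the lowest for both, and the vehicle for FJ9 the highest. That vehicle was the higher by at least 1.5-fold for 15 of the 35 genes, and with a common control the median was −0.36, with 7 genes 2-fold lower. With the vehicles exchanged the median was −0.09. Mx2, an antiviral GTPase, illustrates this, with 8.32 and 7.96 against 10.47 and 6.30 and a vehicle difference of 2.15. Mx1 was lower with both by similar amounts (−3.50 and −3.70), with a vehicle difference of 1.11, and stood higher on the FJ9 array than on the ICG-001 array by 0.90. Irf7, the factor that amplifies interferon, was lower with FJ9 (−2.20 against −0.15), with a vehicle difference of 0.87.

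Chemokines, adhesion molecules and other NF-κB targets rested on the vehicles in the same way. Of 22 members, 6 were at least 2-fold lower in the difference of effects and none higher, where the shares of all genes were 5.88% and 3.57%. However, 11 members were at least 1.5-fold higher on the vehicle for FJ9. Between the treated arrays the direction turned, with 6 at least 2-fold higher on the FJ9 array and 2 lower. There the shares of all genes were 2.56% and 5.28%. The median difference of effects was −0.07, and it was 0.26 with a common control and 0.83 with the vehicles exchanged. Ccl2, a chemokine for monocytes, read 10.29 and 10.34 without and with ICG-001, and 11.95 and 10.39 without and with FJ9. Only the vehicle for FJ9 was high, so the difference of effects of −1.61 was 0.05 between the treated arrays. The related chemokine gene Ccl7 read 8.04 and 8.70 against 9.82 and 7.86. For Cxcl12, a stromal chemokine that retains blood cells, the vehicles were alike (0.25 apart) and both treated arrays were low, at 11.63 and 10.47 against 11.88 and 9.17.

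The remaining lists are given more briefly, and their counts stand beside 3.57% of all genes 2-fold higher and 5.88% lower. Of 31 glycolysis and hypoxia genes, 1 was 2-fold higher in the difference of effects and 1 lower, near those shares. The glucose transporter gene Slc2a3 was higher with ICG-001 alone (1.47 against −0.12). Of 20 p53 targets, 17 were below 0 in the difference of effects, with a median of −0.43. Gadd45a, the 1 member 2-fold higher, was higher with both compounds (0.95 and 2.39). Fas, a death receptor gene, was the 1 member 2-fold lower (−1.16). In the IGF axis, the binding proteins Igfbp3 and Igfbp4 went opposite ways and in opposite senses: Igfbp3 had effects of 0.67 with ICG-001 and −1.89 with FJ9, and Igfbp4 had −0.91 and 0.75. Pappa, the protease that cleaves Igfbp4, was higher with both (2.41 and 2.89). Of 8 genes of xenobiotic efflux and oxidation, 2 were 2-fold higher in the difference of effects, Abcb1a and Cyp4b1, and none was lower. The drug efflux pump gene Abcb1a was higher with both compounds, by 2.14 with ICG-001 and 3.42 with FJ9. Its relative Abcb1b, with a mean level of 10.30 against 7.19, was not: its effects were −0.20 and −0.74. The vehicle difference of Abcb1b was 0.84. Of 13 genes of the quiescent and adipogenic state, 1 passed 2-fold: Lrat, which esterifies retinol for storage, read 11.46 and 10.04 without and with ICG-001, and 10.52 and 7.18 without and with FJ9.

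Other genes with wide gaps belong to none of the lists. Il1rl1, the receptor of interleukin 33, read 10.06 and 10.92 without and with ICG-001, and 10.33 and 7.43 without and with FJ9. Txnip, an inhibitor of thioredoxin and of glucose uptake, read 8.97 and 9.88 against 9.97 and 7.29. Both were past 1.5-fold in opposite directions, 13.6-fold and 12.1-fold apart in the difference of effects, and the vehicles of Txnip differed by 1.00. Cyp26b1, which degrades retinoic acid, read 7.56 and 8.25 against 7.60 and 5.31. Thbd, the anticoagulant thrombomodulin, had effects of 0.70 and −2.25, and Gdf6, a ligand of the BMP group, had 0.50 and −2.76, with a vehicle difference of 0.96. Among the genes named for being in the opposite set were Dpysl3 (1.70 and −1.86) and Dpysl5 (1.22 and −1.19). They belong to the collapsin response mediator family, of which no other member is given here. Their vehicles differed by 1.38 and 0.77, the FJ9 vehicle being the higher. The opposite set further held the receptor gene Ephb1 (1.12 and −1.11), the growth factor gene Pdgfc (1.01 and −1.15), Fam107b (1.02 and −1.29), Tspyl4 (1.12 and −1.05), Nkain4 (1.67 and −1.26) and Vof16 (1.66 and −1.16). The vehicle difference was −1.18 for Nkain4 and 1.18 for Vof16. Fibin, with −3.19, was low on the FJ9 array and differed by 1.24 between the vehicles.

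On the higher side, Ampd3, an AMP deaminase, read 7.33 and 6.69 without and with ICG-001, and 7.46 and 9.78 without and with FJ9. Foxq1, a forkhead factor, read 6.37 and 6.25 against 6.73 and 9.04. In both, the FJ9 array was high. Ampd3 was also past 1.5-fold lower with ICG-001 (−0.645) and so belongs to the opposite set, while the ICG-001 effect of Foxq1 was −0.12. Pde7b, a cyclic AMP phosphodiesterase, had the same sign from the other compound: it read 9.34 and 6.67 against 8.56 and 8.91, and the ICG-001 array alone was low. Marchf10 (−2.03 with ICG-001 and 0.34 with FJ9) and C8h11orf87 (−1.97 and 0.31) followed Pde7b. Cyp4b1, a cytochrome P450, was higher with FJ9 (3.28), with a vehicle difference of −1.40. Genes past 1.5-fold lower with ICG-001 and higher with FJ9 included Pla2g7, which inactivates platelet-activating factor (−0.94 and 0.98), Pdpn (−0.81 and 0.84), which encodes podoplanin, Mgat3 (−0.98 and 0.78), a glycosyltransferase, and Tcp11l1 (−0.90 and 0.78).

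A last group reached 2-fold through the vehicle arrays while the treated arrays stayed within 1.5-fold. Slc30a10, a manganese exporter, read 8.96 and 7.23 without and with ICG-001, and 6.35 and 6.86 without and with FJ9. The vehicle for ICG-001 alone was high, and the FJ9 array stood below the ICG-001 array by −0.37 despite a difference of effects of 2.24. Col6a4 read 7.88 and 7.59 against 5.92 and 8.15, where the vehicle for FJ9 alone was low. Its other 2 probe sets gave 0.28 and 0.65 in place of 2.52. Agrp, Clec4e and Ocm, each in the opposite set, had vehicle differences between −1.51 and −1.21. Wfdc21, in the opposite set too, had a vehicle difference of −1.27 and treated arrays that differed by 0.75, just past 1.5-fold. On the lower side Cd200, a surface protein that restrains myeloid cells, read 9.40 and 7.10 against 10.64 and 6.56. Rftn1 (−1.42), Spa17 (−1.37) and Oas1b (−1.37) were also in this group. With the vehicles exchanged, Slc30a10 gave −2.98, Col6a4 −1.41 and Cd200 0.70, each of the opposite sign.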

How the data were processed

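RNA of pooled primary stellate cells was measured on Affymetrix whole-transcript arrays. Each deposited array holds 1 log2 value for every probe set, which the authors obtained by RMA (robust multi-array average). The submitters' processing notes name Expression Console as the software. Its version and the genome build were not given in the sources used here. RMA is meant to bring arrays to a common distribution, which can hide a shift shared by most genes. The deposited arrays of the contrast still differed, with medians from 7.11 for ICG-001 to 7.28 for its vehicle. All 6 columns were used as deposited, with values from a floor of 4. The number of arrays limits the precision.

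The platform annotation gave 15092 of 26988 probe sets 1 symbol and 323 several, and 11573 are unnamed here. Entrez identifiers of 15062 matched the RefSeq table of GRCr8, which changed 0 symbols. For 497 genes with several probe sets, the one with the highest mean over the 6 arrays was used, and the lowest 30% of genes by that mean were left out. Differences were counted at 2-fold for the difference of effects and at 1.5-fold for an effect, and 0 tests were run. The calculation was tested on simulated data (Python 3.11.15, statsmodels 0.14.6 for loess).

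The members and 31 gene lists were chosen with earlier results of these data known. Named were the 15 largest differences of effects in each direction, the 12 strongest opposite genes in each sense, up to 5 members of each list, the 6 in each direction that rest on the vehicles, the 5 widest gaps between treated arrays and 17 fixed genes. Members of lists named beyond these were chosen after their values were seen. Alternatives varied the control, scaling, filter, probe set rule and fold.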

Additional observations from a re-analysis of the deposited data

Results flagged for a closer look

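Of 6479 probe sets above the level filter that carry no gene symbol here or several, 617 (9.52%) reached 2-fold in the difference of effects, 368 higher and 249 lower. Between the vehicle arrays, 188 (2.90%) of them were at least 2-fold apart. They were set aside because they cannot be tied to 1 gene, and they enter no count above.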

How the results depend on the processing

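With 1 array a group, no replicate could be left out and the spread between cultures is unknown. No paired analysis was possible because each group holds 1 array and no test was run. The 2-fold counts of the difference of effects (main values 947 in all, 358 higher and 589 lower) and the opposite counts (115, 34 and 81) moved as follows. With the vehicles exchanged, 547 genes were higher and 243 went opposite ways, 83 higher with FJ9 and 160 lower. These were in part other genes. Of the 34 opposite genes higher with FJ9 in the main setting, 15 stayed opposite both with a common control and with the vehicles exchanged. Of the 81 lower with FJ9, 45 did. With arrays centred on their medians, 205 were higher and 886 lower, and the opposite counts were 19 and 136. Without the level filter, 1514 passed, 821 of them higher, and 186 were opposite, 94 higher with FJ9 and 92 lower, so that the larger side turned in both counts. With the lowest 50% of genes left out, 573 passed, 133 of them higher, and 74 were opposite, 18 higher with FJ9. At 1.5-fold, 2879 passed (1324 higher and 1555 lower), and at 3-fold 245 (67 and 178). At 2-fold with each compound, 12 were opposite, 0 higher with FJ9 and 12 lower. The remaining count comparisons stayed within 1.5 times.

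Of the named genes' values, 1335 differed from the main value by less than the SD of the vehicle difference (0.34), and 196 by more. A further 22, from genes at least 2-fold in the main value, changed sign. Among these genes, with a common control the sign changed for Ccl2 (0.0515), Slc30a10 (−0.37) and Tm7sf2 (−0.18). With the vehicles exchanged it changed to negative for Agrp (−1.35), Clec4e (−0.81), Col6a4 (−1.41), Ocm (−0.84), Pfkfb4 (−1.30), Slc30a10 (−2.98), Tm7sf2 (−1.71), Trib3 (−0.0447), Wfdc21 (−0.51) and Wif1 (−0.0036). It changed to positive for Ccl2 (1.71), Ccl7 (0.95), Cd200 (0.70), Cxcl10 (0.55), Mx2 (0.49), Oas1b (0.23), Rftn1 (0.26), Spa17 (0.51) and Tlr2 (0.74). Both settings alter only the vehicles. The vehicle difference was −1.44 for Pfkfb4 and 1.43 for Tlr2. Of values under 2-fold in the main setting, 23 changed sign over all settings, among them Scd (−5.38) and Mx1 (2.01) with the vehicles exchanged. Over the settings, 232 list medians stayed within that SD of the main value and 16 did not.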
